A study of Homo sapiens with 30 samples.

Results

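Hybrid tumoroids whose droplets presented PD-1 and CD40L together were compared with hybrid tumoroids whose droplets carried no protein. The members are the 6 libraries with those 2 sample labels, 3 per group, out of 30 libraries in 10 groups. PANC-1, the established human line used in all cultures and labelled wild type, comes from an adenocarcinoma of the pancreatic duct. The droplets are DSLBs, silicone oil droplets wrapped in a lipid bilayer, and act as synthetic cells that can display the ectodomains of immune proteins by a polyhistidine tag. In the plain group the treatment label reads synthetic cell stimulation, and in the PD-1/CD40L group it adds protein stimulation. Both groups therefore contained DSLBs, and they differed in the presence of any protein as well as in its identity, so an effect of PD-1, of CD40L and of a tagged protein on the droplet cannot be told apart in this comparison. Hybrids with PD-1 alone (3 libraries), tumoroids without DSLBs (3) and the 6 groups with PD-1 and CD2, CD27, CTLA4, ICOS, LAG3 or TIGIT (3 each) were used where they bear on a value. The cultures held 1 tumour cell line and no immune cells, and RNA was taken from whole cultures.

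CD40L is a TNF family ligand on activated T cells. Its receptor CD40 is best known on B cells and dendritic cells and is also made by many epithelial tumours. Bound CD40 recruits TRAF adaptors, which start the canonical NF-κB pathway and, through the kinase NIK, the noncanonical pathway that processes NFKB2 and releases RELB. PD-1 is an inhibitory receptor of T cells, and its ligands PD-L1 (gene CD274) and PD-L2 (PDCD1LG2) sit on the tumour cell, so that a PD-1 droplet presents to the tumour cell the side that a T cell would.

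Levels are CPM, that is counts scaled to a fixed total, on TMM-scaled libraries, in which differences in depth and composition between libraries are scaled out. A gene rose or fell where edgeR's quasi-likelihood test gave a Benjamini-Hochberg adjusted p under 0.05, and fold changes are PD-1/CD40L over plain DSLB hybrids on the log2 scale. The labels call the 3 samples of a group biological replicates. The summed expected counts were 25.8 to 37.0 M with plain DSLBs and 21.9 to 50.8 M with PD-1/CD40L DSLBs. None of the 12 markers of PANC-1 and pancreatic epithelium was at 0 in all libraries of a group, and 1 had a mean under 1 TPM in each group. The 12 summed to 8906 to 9228 TPM with plain DSLBs and 11445 to 11637 TPM with PD-1/CD40L DSLBs. Of 12 T and NK cell markers the summed level was 1.01 to 1.28 TPM and 0.960 to 1.29 TPM, and CD3D, CD3E, NKG7 and GZMB were at 0 in all 6 libraries. Of 5 B cell markers the sum was 0.330 to 0.510 and 0.280 to 0.570 TPM. The 8 myeloid markers summed to 31.6 to 32.6 and 45.7 to 53.1 TPM, mostly from CD68, with FCGR3A and AIF1 at 0. Those of fibroblasts and endothelium (8) summed to 5.64 to 6.85 and 2.58 to 3.27 TPM.

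The comparison separated the groups over much of the transcriptome, mostly by small steps. Of 18424 genes tested, 2432 (13.2%) were higher with PD-1/CD40L DSLBs and 2268 (12.3%) were lower, 25.5% in all, and 8113 genes (44.0%) had 6 libraries that did not overlap. Leaving out PD-1/CD40L replicate 1 gave 1573 higher and 1821 lower genes. The median log2 fold change over all tested genes was 0.01 and the median standard error 0.117. A fold change under 0.5 on the log2 scale was seen for 2880 of the called genes, while 248 rose by at least 1 and 282 fell by at least 1. The genes that fell were longer (median effective length 3138 nt, against 1746 nt for those that rose and 1914 nt for all tested) and poorer in G and C (median 43.8%, against 55.0% and 48.4%). Of the genes that rose, 357 (14.7%) were not protein coding, of those that fell 108 (4.76%), against 22.2% of all tested. By contrast, plain DSLB hybrids and tumoroids without DSLBs differed in 2 genes (0.0109%; 1123 at an unadjusted p under 0.05), WLS and SCG2, both higher with plain DSLBs, at log2 0.32 and 0.68.

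**Figure D1:**
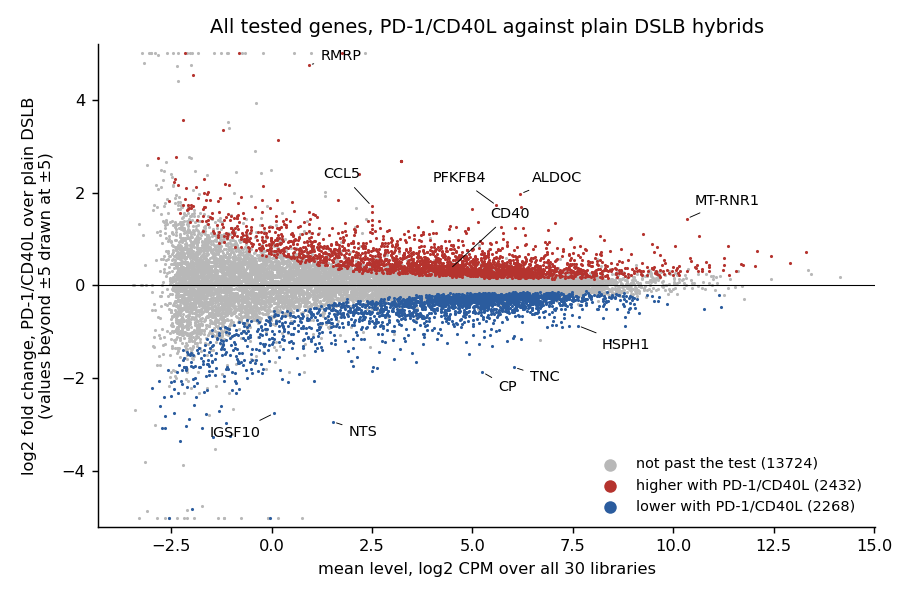
Each point is 1 of the 18424 genes tested, with its mean level over all 30 libraries on the x axis (log2 CPM) and the log2 fold change of PD-1/CD40L over plain DSLB hybrids on the y axis, where values beyond ±5 are drawn at ±5. Coloured points passed the test (2432 higher, 2268 lower), most of them within 1 log2 unit of 0.

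CD40 itself was expressed and rose. CD40 (ENSG00000101017, chr20:46118271-46129863 on GRCh38) was at 19.3, 18.8 and 17.3 CPM with plain DSLBs and 24.3, 23.5 and 22.7 CPM with PD-1/CD40L DSLBs (log2 fold change 0.35, SE 0.0688, adjusted p = 0.000415). The lowest PD-1/CD40L library lay above the highest plain library. Per length, the mean was 21.6 TPM ± 3.02 (SD, n = 3) with plain DSLBs and 24.4 TPM ± 1.67 (SD, n = 3) with PD-1/CD40L DSLBs. On this scale the groups overlapped, as the plain library at 23.8 TPM lay above the PD-1/CD40L library at 22.7 TPM. With PD-1 alone CD40 was at 21.1, 21.1 and 23.6 CPM, and the difference of PD-1/CD40L from PD-1 was 0.10 (95% interval -0.04 to 0.24), which did not pass the test.

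Of the 18 genes for CD40 and its proximal adaptors 3 rose and 5 fell, where 13.2% of all genes rose and 12.3% fell, with a median log2 fold change of -0.08. The risers besides CD40 were TRAF1 (0.55), an NF-κB-inducible adaptor, and TRAF3IP2 (0.56), an adaptor of IL-17 receptor signalling. TRAF1 was at 11.05, 11.1 and 11.1 CPM with plain DSLBs and 14.4, 15.7 and 18.9 CPM with PD-1/CD40L DSLBs. Its 2 groups did not overlap. Those that fell were BIRC3 (-0.37), MAP3K14 (-0.31), CHUK (-0.30), OTUD7B (-0.23) and BIRC2 (-0.20). BIRC2 and BIRC3 encode the cIAP ubiquitin ligases that work with TRAF2, MAP3K14 encodes NIK, CHUK the IKKα kinase that NIK activates, and OTUD7B a deubiquitinase of TRAF3. Of these 5 falls 3 were left when PD-1/CD40L replicate 1 or 2 or plain replicate 2 or 3 was left out and 2 with a length trend removed, and BIRC3 alone of the 5 passed under every alternative that gave a value. The adaptors TRAF2 (-0.04), TRAF3 (-0.17), TRAF5 (0.27) and TRAF6 (-0.24) did not pass. CD40L also has integrin receptors. Of 7 such subunits tested none rose and 1 fell, against 13.2% and 12.3% of all genes. It was ITGAV (-0.34), which did not pass without PD-1/CD40L replicate 2 (-0.33) or plain replicate 1 (-0.32). ITGA5 (0.22) and ITGB1 (0.21) did not pass.

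The ligands of PD-1 were close to the limit of detection. CD274 had a mean of 0.123 TPM with plain DSLBs and 0.0533 TPM with PD-1/CD40L DSLBs, and it did not reach the minimum count for the test. PDCD1LG2 was listed at 0, as were CD80 and CD86, which are partners of CTLA4 rather than of PD-1. Of the partners of the other presented proteins, 6 could be tested, and 2 rose and 1 fell, against 13.2% and 12.3% of all genes. LGALS3 (0.55), a galectin that binds LAG3, and NECTIN2 (0.43) rose, and PVR (-0.27), which like NECTIN2 binds TIGIT, fell. CD58 (-0.01), the partner of CD2, CD70 (0.22), the partner of CD27, and ICOSLG (0.02) did not pass.

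Both subunits of the noncanonical NF-κB pair rose. NFKB2, the precursor of the noncanonical branch, was at 41.97, 38.3 and 36.3 CPM with plain DSLBs and 52.3, 55.3 and 60.9 CPM with PD-1/CD40L DSLBs (log2 fold change 0.53, SE 0.0762, adjusted p = 8.87e-06). Its partner RELB was at 11.5, 11.9 and 10.9 CPM with plain DSLBs and 16.4, 15.9 and 14.4 CPM with PD-1/CD40L DSLBs (log2 fold change 0.45, SE 0.0927, adjusted p = 0.00068). In both genes every PD-1/CD40L library lay above every plain library. REL, a canonical subunit, was at 13.96, 15.5 and 14.2 CPM with plain DSLBs and 10.01, 10.9 and 6.998 CPM with PD-1/CD40L DSLBs (log2 fold change -0.63, SE 0.208, adjusted p = 0.0276), with all PD-1/CD40L libraries below the plain ones and replicate 3 the lowest. Without PD-1/CD40L replicate 3 REL did not pass (-0.50, adjusted p = 0.113), nor without 4 of the other 5 libraries or with a length trend removed. Of the 15 genes of NF-κB subunits and feedback inhibitors 5 rose and 3 fell (median 0.13), against 13.2% and 12.3% of all genes. With a length trend removed 5 rose and 0 fell, and 1 fell without PD-1/CD40L replicate 1 or 3 or plain replicate 1 or 3. The other risers were TNIP1 (0.48), a partner of the inhibitor A20, BCL3 (0.38) and RELA (0.18), and the other genes that fell were CYLD (-0.32), a deubiquitinase, and NFKB1 (-0.16), which passed in 1 of the 6 fits with a library of either group left out. The feedback inhibitors NFKBIA (0.15) and TNFAIP3 (0.11), which encode IκBα and A20, did not pass. With PD-1 alone NFKB2 was at 52.1, 50.9 and 50.7 CPM and RELB at 15.3, 15.1 and 14.6 CPM. PD-1/CD40L differed from PD-1 by 0.13 for NFKB2 (-0.03 to 0.28) and by 0.06 for RELB (-0.13 to 0.24), neither past the test.

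Among secreted and surface targets of CD40 and NF-κB, neutrophil chemokines fell while CCL5 and ICAM1 rose. Promoter sequences are shown for 2 chemokines that fell, because both hold a full κB decamer, and they are taken from RefSeq on GRCh38.p14 as the 250 bases before the start, 5′ to 3′ on the gene's strand. Capitals mark GGGAA joined to TTTCC, which was searched on both strands. CXCL1 lies at chr4:73869143-73869392 and CXCL6 at chr4:73836428-73836677, both on the plus strand.
CXCL1: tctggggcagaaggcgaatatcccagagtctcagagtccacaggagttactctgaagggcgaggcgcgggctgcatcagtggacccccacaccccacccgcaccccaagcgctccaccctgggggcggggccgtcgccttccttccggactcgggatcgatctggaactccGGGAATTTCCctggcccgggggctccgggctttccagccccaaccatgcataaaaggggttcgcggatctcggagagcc
CXCL6: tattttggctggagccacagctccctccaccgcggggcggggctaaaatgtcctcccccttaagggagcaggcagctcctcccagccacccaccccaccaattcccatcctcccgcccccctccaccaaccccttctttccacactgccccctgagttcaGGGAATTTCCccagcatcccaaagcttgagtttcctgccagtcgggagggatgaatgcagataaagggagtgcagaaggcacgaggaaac
The decamer was found in 5 of the 22 promoters matched for this list (CXCL1, CXCL2, CXCL3, CXCL5 and CXCL6), against 0.161% of 27305 promoters, each searched over 300 bases that run past the start. These 5 are paralogs in 1 cluster and share sequence. The list is of known CD40 and NF-κB targets, so the excess may come from its choice. The part of the decamer in the values was not tested. CXCL1, a neutrophil chemokine, was at 5.14, 4.48 and 4.35 CPM with plain DSLBs and 2.89, 2.42 and 2.55 CPM with PD-1/CD40L DSLBs (log2 fold change -0.82, SE 0.128, adjusted p = 2.49e-05). CXCL6 was at 0.927, 1.13 and 1.07 CPM with plain DSLBs and 0.585, 0.341 and 0.463 CPM with PD-1/CD40L DSLBs (log2 fold change -1.13, SE 0.297, adjusted p = 0.00585), and CXCL8 at 1.72, 1.000 and 1.03 CPM with plain DSLBs and 0.545, 0.530 and 0.417 CPM with PD-1/CD40L DSLBs (log2 fold change -1.31, SE 0.284, adjusted p = 0.00106). In all 3 genes the highest PD-1/CD40L library lay below the lowest plain library. CXCL2 (-0.48) and CXCL5 (-1.09) did not pass.

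The chemokine CCL5, which attracts T cells, moved the other way. It was at 2.28, 2.05 and 2.14 CPM with plain DSLBs and 7.003, 6.89 and 7.28 CPM with PD-1/CD40L DSLBs (log2 fold change 1.71, SE 0.183, adjusted p = 8.75e-08), so that the groups lay far apart at a low level. ICAM1, the adhesion molecule that T cells bind through LFA-1, was at 105, 83.6 and 92.8 CPM with plain DSLBs and 153, 149 and 152 CPM with PD-1/CD40L DSLBs (log2 fold change 0.69, SE 0.0825, adjusted p = 5.29e-07). The angiogenic factor VEGFA (0.85), TNFAIP2 (0.54) and the transcription factor IRF1 (0.45) rose as well. Of 30 records on this list 19 were tested, 5 rose and 3 fell, against 13.2% and 12.3% of all genes, and the median was -0.02, with a sign that differed between alternatives. Of the 8 survival genes none rose and 2 fell, against 13.2% and 12.3% of all genes. The 2 were BIRC5 (-0.58), which encodes survivin and also belongs to cell division, and the caspase inhibitor XIAP (-0.29). Without PD-1/CD40L replicate 3, 4 of the 8 fell. BCL2A1, which encodes Bfl-1, was at 0.768, 0.658 and 0.648 CPM with plain DSLBs and 0.827, 0.303 and 0.417 CPM with PD-1/CD40L DSLBs. The groups overlapped, and the log2 fold change of -0.34 (95% interval -1.11 to 0.44, adjusted p = 0.565) covers both a fall and a rise. BCL2L1 (-0.02), MCL1 (-0.13) and CFLAR (-0.24) did not pass.

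**Figure D2:**
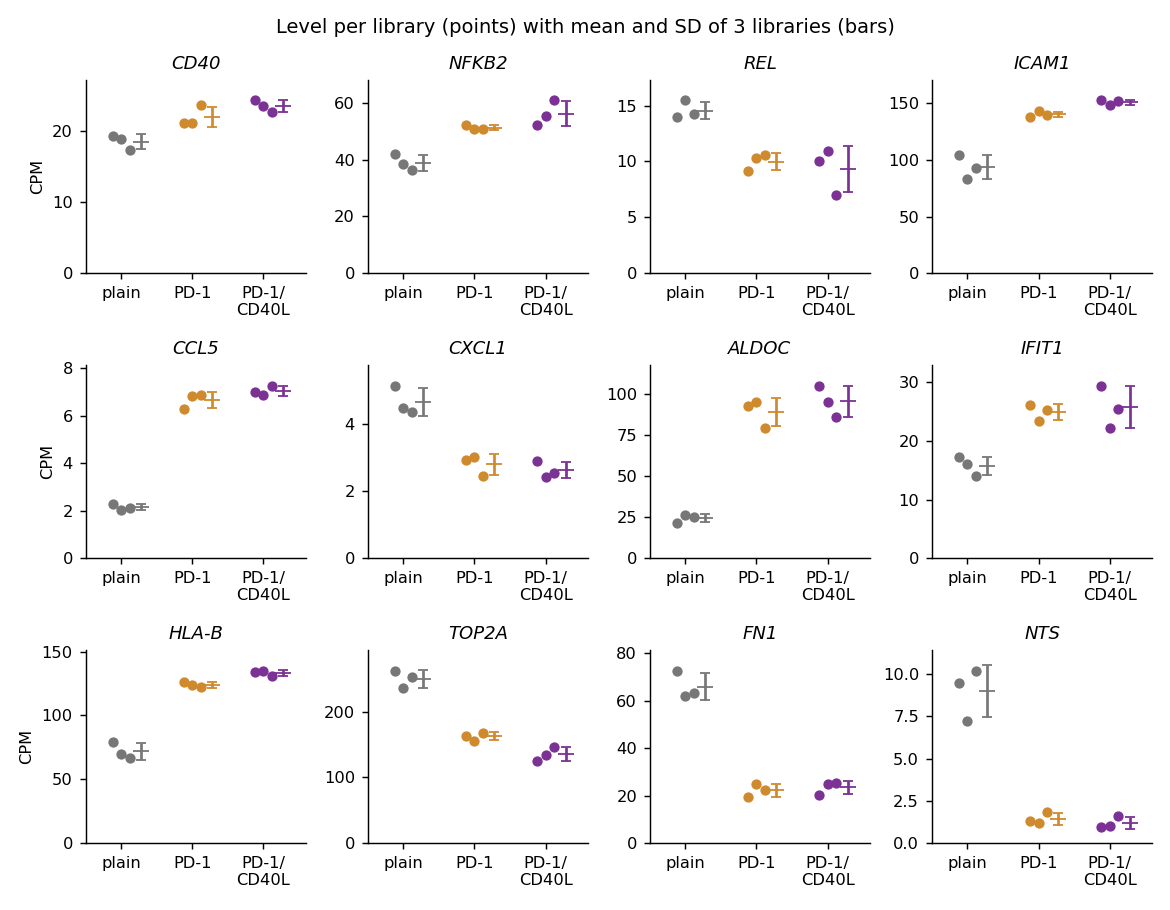
Level in CPM (y axis, from 0) of 12 genes in each library with plain, PD-1 and PD-1/CD40L DSLBs (points), with the mean and SD of 3 libraries beside them. For all 12 the PD-1/CD40L libraries lie wholly above or wholly below the plain libraries. The 12 were chosen for display, and 8113 of the 18424 genes tested (44.0%) were without overlap. For most of the 12 the PD-1 libraries lie near those of PD-1/CD40L.

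Genes of the hypoxia response and glycolysis rose together. HIF transcription factors drive these genes when oxygen is short, so that the cell takes up more glucose and turns it into lactate. Of 24 genes 22 rose and none fell, where 13.2% of all genes rose, and the median log2 fold change was 0.78 against 0.01 over all genes. The promoters of ALDOC and ENO2 are shown, in the same way as those above, because they hold the core HIF motif. Capitals mark ACGTG on either strand, and overlapping matches run together. ALDOC lies at chr17:28576896-28577145 on the minus strand and ENO2 at chr12:6914330-6914579 on the plus strand.
ALDOC: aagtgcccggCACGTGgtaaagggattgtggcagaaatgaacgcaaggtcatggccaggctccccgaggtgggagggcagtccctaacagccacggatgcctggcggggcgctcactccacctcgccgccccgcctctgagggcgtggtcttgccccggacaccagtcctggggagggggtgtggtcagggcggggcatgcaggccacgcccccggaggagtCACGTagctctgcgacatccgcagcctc
ENO2: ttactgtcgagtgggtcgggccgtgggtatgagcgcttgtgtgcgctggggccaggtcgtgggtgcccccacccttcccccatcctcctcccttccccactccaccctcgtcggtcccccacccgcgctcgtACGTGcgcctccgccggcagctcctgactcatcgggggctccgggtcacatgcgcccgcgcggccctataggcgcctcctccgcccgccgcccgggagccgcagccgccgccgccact
ACGTG was found in 10 of 21 promoters matched for the list, against 21.6% of all promoters. As the list is of known hypoxia-response genes, the excess may come from its choice. The part of the motif in the values was not tested. ALDOC, a glycolytic aldolase (chr17:28573115-28576948), was at 21.8, 26.5 and 25.1 CPM with plain DSLBs and 105, 95.6 and 86.02 CPM with PD-1/CD40L DSLBs (log2 fold change 1.97, SE 0.117, adjusted p = 3.99e-12). PFKFB4, which sets the rate of glycolysis through fructose bisphosphate, was at 19.6, 14.2 and 23.3 CPM with plain DSLBs and 62.8, 66.8 and 57.98 CPM with PD-1/CD40L DSLBs (log2 fold change 1.72, SE 0.119, adjusted p = 5.03e-11). The lowest PD-1/CD40L library was far above the highest plain library in both. PDK1, whose product inhibits pyruvate dehydrogenase, was at 23.1, 26.8 and 26.96 CPM with plain DSLBs and 60.8, 61.6 and 59.97 CPM with PD-1/CD40L DSLBs (log2 fold change 1.25, SE 0.0926, adjusted p = 1.54e-10). The enolase ENO2 was at 42.3, 36.9 and 45.4 CPM with plain DSLBs and 94.3, 96.95 and 103 CPM with PD-1/CD40L DSLBs (log2 fold change 1.24, SE 0.0922, adjusted p = 1.54e-10), again without overlap. HK2 (1.23), NDRG1 (1.00), BNIP3 (0.98), PFKFB3 (0.63), PGK1 (0.52), LDHA (0.45) and ENO1 (0.22) rose by smaller steps. The exceptions were ANKRD37 (0.66) and EGLN3 (-0.32), a HIF prolyl hydroxylase, which did not pass.

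Interferon response genes rose as well, at more modest sizes. These are the genes that type I and type II interferons induce through STAT proteins, and they block viral RNA and present antigen. Of 27 genes 15 rose and none fell (median 0.53), where 13.2% of all genes rose. With 1 library of either group left out, 11 to 15 of the 27 rose. The promoters of IFIT1 (chr10:89392373-89392622, plus strand) and IFIT3 (chr10:89327747-89327996, plus strand) are shown because both hold the interferon-stimulated element. Capitals mark GAAA, any 2 bases and GAAA on either strand.
IFIT1: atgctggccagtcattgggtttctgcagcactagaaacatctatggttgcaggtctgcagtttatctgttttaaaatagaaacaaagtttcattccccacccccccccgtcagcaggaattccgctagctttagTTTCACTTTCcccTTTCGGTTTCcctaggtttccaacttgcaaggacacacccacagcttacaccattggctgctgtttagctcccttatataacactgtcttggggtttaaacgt
IFIT3: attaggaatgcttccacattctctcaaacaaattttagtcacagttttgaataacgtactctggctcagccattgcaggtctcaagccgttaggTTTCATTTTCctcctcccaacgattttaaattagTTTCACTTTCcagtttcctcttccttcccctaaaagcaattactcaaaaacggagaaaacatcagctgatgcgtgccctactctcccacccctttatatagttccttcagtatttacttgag
This motif was found in 14 of 21 promoters matched for the list, against 3.65% of all promoters. The list is of known interferon-induced genes, so the excess may come from its choice. The part of the motif in the values was not tested. IFIT1, which binds foreign RNA ends, was at 17.2, 16.1 and 14.1 CPM with plain DSLBs and 29.5, 22.3 and 25.5 CPM with PD-1/CD40L DSLBs (log2 fold change 0.71, SE 0.106, adjusted p = 1.45e-05). IFIT3 was at 12.2, 11.2 and 10.3 CPM with plain DSLBs and 22, 18.1 and 17.1 CPM with PD-1/CD40L DSLBs (log2 fold change 0.77, SE 0.106, adjusted p = 4.34e-06), and OASL at 7.31, 8.61 and 8.24 CPM with plain DSLBs and 17.1, 14.7 and 14.6 CPM with PD-1/CD40L DSLBs (log2 fold change 0.95, SE 0.103, adjusted p = 9.9e-08). The 2 groups were separate in each. XAF1 (0.85), GBP2 (0.71), MX1 (0.71), IRF7 (0.53) and IRF9 (0.48) rose, while STAT2 (-0.06) and ISG15 (0.30) did not pass.

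Class I antigen presentation rose with them. Of 14 genes 9 rose and none fell (median 0.30), where 13.2% of all genes rose. With 1 library of either group left out, 7 to 9 of the 14 rose. HLA-B was at 79.5, 69.8 and 66.8 CPM with plain DSLBs and 134, 135 and 131 CPM with PD-1/CD40L DSLBs (log2 fold change 0.89, SE 0.0744, adjusted p = 1.19e-09), without overlap. HLA-C (0.63), HLA-E (0.45) and B2M (0.38) also rose, as did the immunoproteasome subunit PSMB8 (0.57) and the peptide loading genes TAPBP (0.30), TAP2 (0.23) and TAP1 (0.19). The regulator NLRC5 (0.04) did not pass. The classical class I genes are close in sequence, so that reads may be divided among them with error.

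Proliferation genes fell. Of 29 genes for DNA replication and mitosis 25 fell and none rose (median -0.48), where 12.3% of all genes fell. MKI67, the antigen Ki-67, was at 224, 178 and 201 CPM with plain DSLBs and 89.2, 111 and 123 CPM with PD-1/CD40L DSLBs (log2 fold change -0.91, SE 0.190, adjusted p = 0.00112). TOP2A, the topoisomerase of dividing cells, was at 262, 235 and 252 CPM with plain DSLBs and 125, 134 and 147 CPM with PD-1/CD40L DSLBs (log2 fold change -0.88, SE 0.0871, adjusted p = 2.21e-08). All PD-1/CD40L libraries lay below all plain libraries for both. CDC25A (-0.81), CDC6 (-0.80), E2F2 (-0.78) and E2F1 (-0.71), which act at the start of replication, fell by similar amounts, and MCM5 (0.10) did not pass. In RNA from whole cultures, fewer dividing cells and less of these RNAs per cell cannot be told apart. Of 64 replication-dependent histone records 37 were tested, and 9 fell and none rose (median -0.38), where 12.3% of all genes fell. Without plain replicate 3, 5 fell. Among the 9 were H3C13 (-1.72), H2AC13 (-1.39) and H3C4 (-1.25). When single libraries of either group were left out, H3C13 passed only without PD-1/CD40L replicate 1. These transcripts mostly lack a poly(A) tail and have near-identical copies.

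**Figure D3:**
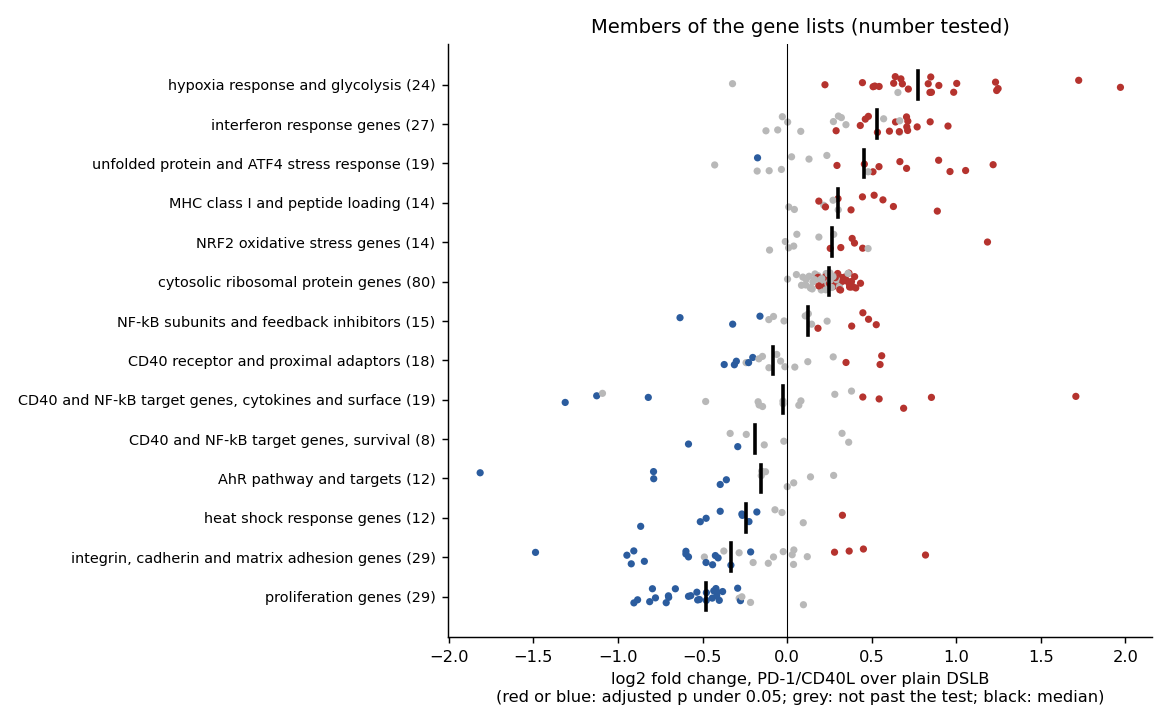
Log2 fold change of PD-1/CD40L over plain DSLB hybrids (x axis) for each tested member of 14 gene lists (rows), in red or blue where the adjusted p was under 0.05, in grey otherwise, with the median in black. Hypoxia genes lie furthest to the right (median 0.78) and proliferation genes furthest to the left (median -0.48).

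Chaperone genes of the heat shock response mostly fell, with 8 of 12 lower and 1 higher (median -0.24), against 12.3% and 13.2% of all genes. Without PD-1/CD40L replicate 2 or any 1 plain library 5 were lower, and without PD-1/CD40L replicate 1 6 were, with none higher in these fits. HSPH1, a cochaperone of HSP70, was at 292, 294 and 301 CPM with plain DSLBs and 154, 165 and 168 CPM with PD-1/CD40L DSLBs (log2 fold change -0.87, SE 0.0628, adjusted p = 9.45e-11). HSPA8 (-0.51), DNAJA1 (-0.48) and HSP90AA1 (-0.40) fell and the small heat shock gene HSPB1 (0.33) rose. The aryl hydrocarbon receptor is a ligand-activated transcription factor held by HSP90. Of 12 genes of its pathway 5 were lower and none higher (median -0.15), where 12.3% of all genes fell. AHR was at 105, 110.4 and 100.2 CPM with plain DSLBs and 60.7, 59.2 and 62.8 CPM with PD-1/CD40L DSLBs (log2 fold change -0.79, SE 0.0893, adjusted p = 2.15e-07), and its target CYP1B1 was at 221, 213 and 206 CPM with plain DSLBs and 119, 125 and 127 CPM with PD-1/CD40L DSLBs (log2 fold change -0.79, SE 0.0644, adjusted p = 7.52e-10). CYP1A1, the classical target, was at 0.318, 0.421 and 0.267 CPM with plain DSLBs and 0.0605, 0.189 and 0.0463 CPM with PD-1/CD40L DSLBs (log2 fold change -1.81, SE 0.628, adjusted p = 0.0336). Every PD-1/CD40L library was below every plain library for all 3. CYP1A1 did not pass without PD-1/CD40L replicate 1 (-1.46) or 3 (-1.61) or plain replicate 1 (-1.85) or 2 (-1.61). NQO1 (0.04) and AHRR (0.14) did not pass.

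Of 29 genes of adhesion and matrix 14 fell, 4 rose and 11 did not pass (median -0.33), where 12.3% of all genes fell and 13.2% rose. With a length trend removed 12 fell (median -0.18), and without plain replicate 1 12 fell (median -0.23). Fibronectin, FN1, was at 72.7, 61.9 and 63.4 CPM with plain DSLBs and 20.6, 25.1 and 25.4 CPM with PD-1/CD40L DSLBs (log2 fold change -1.49, SE 0.115, adjusted p = 3.69e-10), clear of overlap. The YAP target CCN2 (-0.95), the desmosomal genes PKP2 (-0.92) and DSP (-0.84), and LAMB3 (-0.91) fell. VIM (0.45), a mesenchymal intermediate filament gene, rose. Among the epithelial markers, the keratins KRT19 (0.85), KRT18 (0.59) and KRT8 (0.44) rose, and CDH1 (-0.58), which encodes E-cadherin, and EPCAM (-0.32) fell. Matrix genes were also among the genes with the largest falls. Tenascin C, TNC, was at 177, 154 and 157 CPM with plain DSLBs and 38.6, 50.03 and 55.99 CPM with PD-1/CD40L DSLBs (log2 fold change -1.76, SE 0.120, adjusted p = 5.47e-11). COL14A1 (-1.78), COL2A1 (-1.77) and VIT (-1.82), all of the extracellular matrix, fell to a like degree.

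Among the called genes with a mean of at least 50 counts and no overlap, NTS, which encodes the peptide neurotensin, had the largest fall. It was at 9.48, 7.24 and 10.2 CPM with plain DSLBs and 0.969, 1.02 and 1.62 CPM with PD-1/CD40L DSLBs (log2 fold change -2.94, SE 0.201, adjusted p = 3.9e-11). Ceruloplasmin, CP, a copper-carrying ferroxidase, was at 95.9, 94.1 and 99.3 CPM with plain DSLBs and 23.2, 26.5 and 29.8 CPM with PD-1/CD40L DSLBs (log2 fold change -1.87, SE 0.104, adjusted p = 7.82e-13). Both had PD-1/CD40L libraries far below the plain ones. The remaining genes of the 15 with the largest falls were IGSF10 (-2.76), DIPK1C (-2.09), VAV3 (-2.05), SEMA5A (-2.03), IGSF9 (-1.91), MECOM (-1.85), EPHB6 (-1.74), RFLNA (-1.64) and ADGRL3 (-1.62). VAV3 is a guanine nucleotide exchange factor, SEMA5A a semaphorin guidance cue, MECOM a zinc finger transcription factor and EPHB6 an Eph receptor. Among the genes with the largest rises, beside ALDOC, PFKFB4 and CCL5, TGM2, a transglutaminase that crosslinks proteins, was at 28.9, 24.7 and 30.7 CPM with plain DSLBs and 102, 88.7 and 79.6 CPM with PD-1/CD40L DSLBs (log2 fold change 1.69, SE 0.128, adjusted p = 4e-10). RASD2 (1.65), a Ras-like GTPase, PPP1R3G (1.57), a glycogen-targeting subunit of a protein phosphatase, LGALS4 (1.52), a gut galectin, and the noncoding LINC02986 (1.53) and ENSG00000280133 (1.85) completed this group with the RNAs described further on.

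Other stress programmes gave mixed counts. Of 19 genes of the unfolded protein and ATF4 response 10 rose and 1 fell (median 0.46), against 13.2% and 12.3% of all genes. Among the members that rose were those of the ATF4 arm, which answers amino acid shortage, such as VLDLR (1.22), DDIT4 (1.06), CHAC1 (0.96), DDIT3 (0.90), TRIB3 (0.71) and ASNS (0.51). The endoplasmic reticulum chaperones HSPA5 (-0.03) and HSP90B1 (-0.18) did not pass and PDIA4 (-0.17) fell, though not with any 1 library of either group left out. Of 14 NRF2 genes 6 rose and none fell, where 13.2% of all genes rose. HMOX1 (1.18), which degrades heme, rose the most, and GCLM (0.01) and GCLC (-0.10) did not pass. Of 19 p53 targets 4 rose and 3 fell, near the 13.2% and 12.3% of all genes, with SESN2 (0.95) the furthest up, and CDKN1A (0.15) did not pass. Without PD-1/CD40L replicate 1, 2 rose, and without PD-1/CD40L replicate 2 or plain replicate 2 or 3, 1 fell. Of 20 genes for death receptors and the BCL2 family 6 rose and none fell, against 13.2% and 12.3% of all genes. None of the 6 rose by more than TNFRSF21 (0.35). Without PD-1/CD40L replicate 1, 2 of the 20 rose (median 0.05, against 0.12). Of 23 immediate early and feedback genes of MAPK signalling 5 rose and 3 fell (median -0.01), against 13.2% and 12.3% of all genes. ATF3 (1.00) and JUNB (0.71) were among those that rose, and DUSP6 (-0.44), SPRY4 (-0.39) and ETV5 (-0.33) fell. No gene of 6 for metallothioneins and zinc export passed.

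Of 24 genes of cholesterol and fatty acid synthesis 9 rose and none fell (median 0.19), where 13.2% of all genes rose, with SCD (0.64) and SREBF1 (0.50) the furthest up. Without PD-1/CD40L replicate 1 3 of them rose, and 5 without plain replicate 2. Of 18 lipid droplet and lipid response genes 3 rose and 1 fell (median 0.04), against 13.2% and 12.3% of all genes. Those that rose were ANGPTL4 (1.35), an inhibitor of lipoprotein lipase that hypoxia also induces, PNPLA2 (0.43) and PLIN2 (0.34). The gene that fell was PDK4 (-0.62). Of 80 cytosolic ribosomal protein genes 33 rose and none fell (median 0.25, at most 0.43 in RPLP0), where 13.2% of all genes rose. With PD-1/CD40L replicate 1 or 2 left out 10 and 15 of them rose, with plain replicate 1 or 3 left out 13 and 20, with a length trend removed 13, and on the 6 libraries alone 66. Of 74 nuclear-encoded subunits of the respiratory chain 16 rose and 1 fell (median 0.17), against 13.2% and 12.3% of all genes. There were 6 that rose without PD-1/CD40L replicate 1, 8 without plain replicate 1 or 3, 10 without plain replicate 2, 8 with a length trend removed and 37 on the 6 libraries alone.

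The rises of hypoxia, interferon and class I genes and the fall of proliferation genes had counterparts in hybrids with PD-1 alone. Both comparisons use the same 3 plain libraries, so their values are given side by side without a test of likeness. The median log2 fold change over plain DSLB hybrids was 0.78 with PD-1/CD40L and 0.71 with PD-1 for the hypoxia genes. It was 0.53 and 0.37 for the interferon genes, 0.30 and 0.43 for the class I genes, and -0.48 and -0.31 for the proliferation genes. Against plain DSLBs, PD-1 alone gave 2084 higher and 1970 lower genes. Single genes ran likewise, with ALDOC at 1.97 and 1.87, CCL5 at 1.71 and 1.63, NTS at -2.94 and -2.64 and CP at -1.87 and -2.08 for PD-1/CD40L and PD-1. Per library, the mean log2 level of the hypoxia list relative to plain DSLB hybrids was 0.75 to 0.87 with PD-1/CD40L and 0.67 to 0.80 with PD-1. The plain libraries spread over -0.05 to 0.10 and the libraries without DSLBs over -0.14 to 0.04. For the proliferation list the PD-1/CD40L libraries lay at -0.51 to -0.49, the PD-1 libraries at -0.37 to -0.29 and the plain libraries at -0.07 to 0.06.

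**Figure D4:**
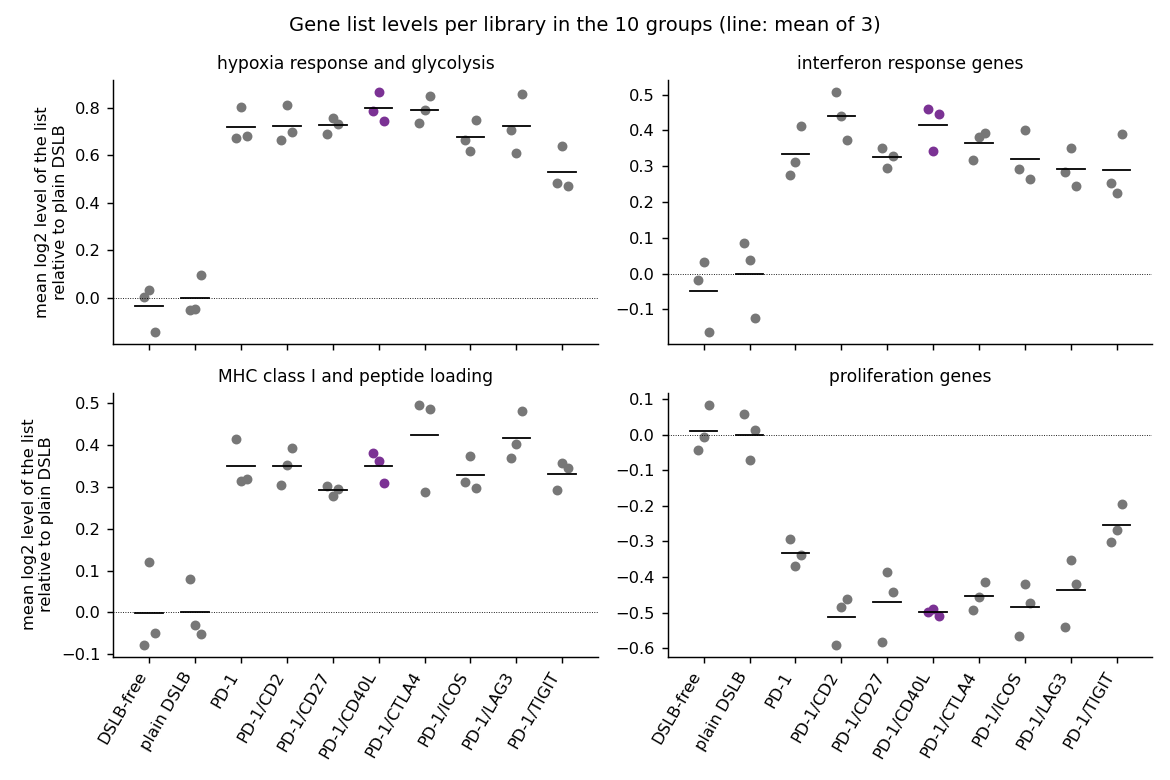
Mean log2 level of 4 gene lists in each of the 30 libraries (points, PD-1/CD40L in purple) relative to the mean of the plain DSLB libraries (dotted line at 0), with the 10 groups on the x axis and a line at each group's mean. The 8 groups with PD-1 lie on one side of the plain and DSLB-free groups, the hypoxia list in PD-1/CD40L at 0.75 to 0.87.

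The direct comparison of PD-1/CD40L with PD-1 hybrids asks what the CD40L ectodomain added, though the amount of PD-1 on the droplets may also have differed. The paper states a single final protein density for proteins loaded alone or as blends with PD-1. The comparison gave 2 genes of 18424 (0.0109%), both higher, and 2091 at an unadjusted p under 0.05. These were MT-RNR1 (log2 fold change 0.91, SE 0.147, adjusted p = 0.0185) and SCARNA7 (log2 fold change 3.52, SE 0.407, adjusted p = 4.79e-05), neither of them a protein-coding gene. MT-RNR1 did not pass without PD-1 replicate 1 (0.84, adjusted p = 0.337), nor when PD-1 replicate 2 was left out (0.96, adjusted p = 0.0764). Each of these fits called 1 gene, while leaving out PD-1/CD40L replicate 1 or 2 gave 14 and 4 genes and leaving out PD-1 replicate 3 gave 7. DESeq2 in a model of all libraries called 110 genes, gave SCARNA7 no adjusted p and called MT-RNR1, and edgeR with a length trend removed called 35. In the edgeR fit with 2 genes called, no member of the lists for CD40 adaptors, NF-κB, target genes, hypoxia, interferon, class I or proliferation passed. List members were not counted in the other fits of this comparison. The median difference from PD-1 was 0.03 for the NF-κB genes, 0.08 for the cytokine and surface targets, 0.07 for hypoxia, 0.05 for class I and -0.19 for proliferation. The intervals of single genes bound what a difference could be. For ICAM1 the difference was 0.11 (-0.06 to 0.27), for CCL5 0.08 (-0.26 to 0.41), for CXCL1 -0.09 (-0.36 to 0.18) and for BCL2A1 -0.19 (-0.96 to 0.57). TOP2A (-0.26, -0.44 to -0.08), AHR (-0.31, -0.49 to -0.13) and ENO2 (0.33, 0.14 to 0.51) had 95% intervals apart from 0 but did not pass after adjustment.

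Against the mean of the other 7 PD-1 groups 6 gene records (0.0326%) were higher and none lower, with 1886 at an unadjusted p under 0.05. They were MT-RNR1 (log2 fold change 0.59, SE 0.105, adjusted p = 0.0262), SCARNA7 (log2 fold change 2.39, SE 0.250, adjusted p = 5.64e-06) and 4 records of 5.8S rRNA that hold identical values (log2 fold change 2.44, SE 0.396, adjusted p = 0.0172). Of these records SCARNA7 alone kept its call with every single library left out. It was the only record called when PD-1/CD40L replicate 2 was left out. Leaving out replicate 1 of that group gave 2 higher and 3 lower genes, of which SCARNA7 was the 1 shared with the 6. MT-RNR1 did not pass when any 1 of the PD-1/CD40L libraries was left out (adjusted p = 0.130 to 0.202). The same held for PD-1/CTLA4 replicates 1 and 3 and for replicate 1 of PD-1 (adjusted p = 0.0552 to 0.0618). MT-RNR1 is the small ribosomal RNA of the mitochondrion, SCARNA7 guides modification of spliceosomal RNA in the Cajal body, and 5.8S rRNA is part of the large cytosolic ribosomal subunit. Set against each group singly, PD-1/CD40L differed in 2 genes from PD-1/CD2 (0.0109%), 0 from PD-1/CD27 and 0 from PD-1/CTLA4, 6 from PD-1/ICOS (0.0326%), 3 from PD-1/LAG3 (0.0163%) and 117 from PD-1/TIGIT (0.635%), each by edgeR's quasi-likelihood test, the only tool run on these 6 pairs. At an unadjusted p under 0.05 the 2 pairs with 0 genes gave 1585 (PD-1/CD27) and 1316 (PD-1/CTLA4). The genes higher than in PD-1/CD2 were BAG6 (0.31) and SNX33 (0.37). Those against PD-1/ICOS were the same 6 records as against the mean of the 7 groups. Against PD-1/LAG3, SCARNA7 and MT-RNR1 were higher and KBTBD6 (-0.39) was lower. Against PD-1/TIGIT 69 genes were higher and 48 lower. They included 5 proliferation genes, all lower, such as PCNA (-0.38) and CDK1 (-0.39), and 2 hypoxia genes, both higher, ENO2 (0.49) and NDRG1 (0.41).

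The noncoding RNAs that set PD-1/CD40L apart were at like levels in 3 other groups. MT-RNR1 was at 783, 709 and 724 CPM with plain DSLBs, 964, 1146 and 1090.3 with PD-1 and 2164, 1933 and 1898 with PD-1/CD40L. Its group means were 1754 CPM with PD-1/CTLA4, 1840.1 with PD-1/CD27 and 1734 with PD-1/CD2, and 1098, 1006 and 1126 with ICOS, LAG3 and TIGIT. SCARNA7 rested on 9 counts in the 3 plain libraries and 93 in the 3 PD-1/CD40L libraries. High and low groups were the same for it, with means of 0.918 CPM with PD-1/CD40L, 0.889, 0.878 and 0.891 with CD2, CD27 and CTLA4, and at most 0.0922 in the other 6 groups. These levels fall into 4 high groups and 6 low groups. In MT-RNR1 PD-1/CD40L lay 0.19 above PD-1/CTLA4 (-0.11 to 0.49), 0.12 above PD-1/CD27 (-0.18 to 0.42) and 0.20 above PD-1/CD2 (-0.10 to 0.51) on the log2 scale, with 95% intervals, none past the test. The labels used here give no library batch or date, and the part of any such factor was not tested.

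Against plain DSLBs these RNAs were among the largest rises. 5.8S rRNA was at 2.44, 8.90 and 1.07 CPM with plain DSLBs and 40.97, 26 and 13.95 CPM with PD-1/CD40L DSLBs (log2 fold change 2.67, SE 0.643, adjusted p = 0.00412), with 4 identical records, so that 1 RNA is counted 4 times. RMRP, the RNA of RNase MRP (chr9:35657754-35658017), was at 0.185, 0 and 0.458 CPM with plain DSLBs and 6.76, 5.03 and 3.66 CPM with PD-1/CD40L DSLBs (log2 fold change 4.75, SE 0.921, adjusted p = 0.000643). Within the PD-1/CD40L group replicate 1 was the highest and replicate 3 the lowest for both. A processed pseudogene, ENSG00000234648 (chr14:98973314-98973471), had no count in the plain libraries and was at 11.6, 7.53 and 2.22 CPM with PD-1/CD40L, at least 242-fold higher against a floor of 3 counts over the plain group. It was at 3.02, 0 and 5.19 CPM with PD-1, so it varied among libraries of 1 group. Such short or repeated RNAs depend on how reads of near-identical copies were assigned, which leaves their values uncertain. Of 13 small nucleolar and Cajal body RNAs tested 5 rose, where 13.2% of all genes rose. Among the 5 were SCARNA9 (1.57) and SNORD15B (2.29), and 2 or 3 rose with any 1 library of either group left out. Of 29 snoRNA host RNAs 11 rose and none fell, where 13.2% of all genes rose. ZFAS1 (0.60) and GAS5 (0.40) were among the 11. Of the 29, 4 rose without PD-1/CD40L replicate 1, 6 without plain replicate 1 or 2 and 7 without plain replicate 3. Of 24 nuclear and intron-retaining transcripts tested 2 rose and 2 fell (median 0.008), against 13.2% and 12.3% of all genes. The nuclear RNA MALAT1 (1.07) had the largest rise on this list, and NEAT1 (0.42) did not pass.

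**Figure D5:**
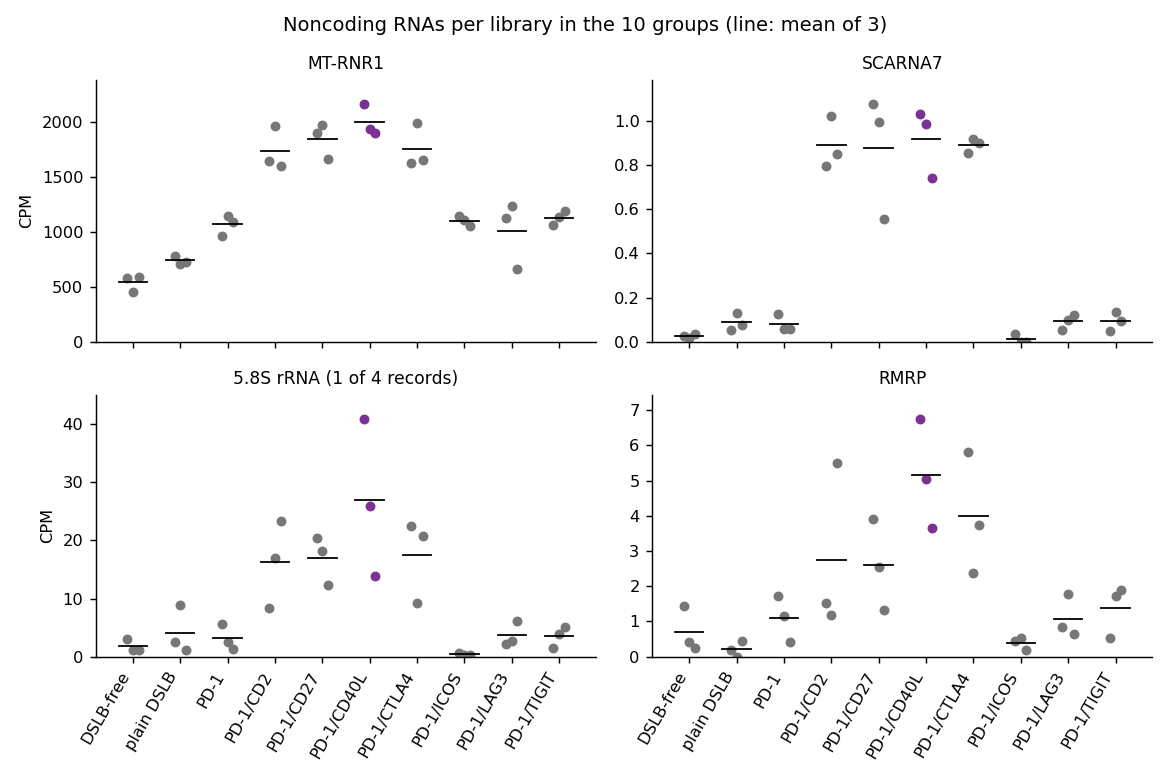
Level in CPM (y axis, from 0) of MT-RNR1, SCARNA7, 1 of the 4 identical 5.8S rRNA records and RMRP in each of the 30 libraries (points, PD-1/CD40L in purple), with a line at the mean of each of the 10 groups. For MT-RNR1 and SCARNA7 the means of the groups with CD40L, CD2, CD27 and CTLA4 lie above those of the other 6 groups.

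The mitochondrial ribosomal RNAs MT-RNR1 (1.44) and MT-RNR2 (0.72) rose over plain DSLBs. None of the 13 mitochondrially encoded mRNAs passed (median 0.09, and -0.17 without PD-1/CD40L replicate 3), and the difference between the 2 kinds of RNA was not tested. Against PD-1 hybrids the median of the 13 mRNAs was 0.77, with none past edgeR's test (smallest adjusted p = 0.0853), beside 0.91 for MT-RNR1. Mitochondrial genes took 5.70% ± 1.13 (SD, n = 3) of counts with PD-1/CD40L, 4.90% ± 0.249 with plain DSLBs and 3.54% ± 0.764 with PD-1. The difference of 0.800 percentage points from plain DSLBs was within the spread (exact permutation test, two-sided, p = 0.3, where 3 against 3 cannot go below 0.1). The 2 mitochondrial rRNAs alone took 1.46% ± 0.0392 and 0.882% ± 0.0543, without overlap (exact permutation test, two-sided, p = 0.1), and the 13 mRNAs 4.24% ± 1.09 and 4.02% ± 0.195 (p = 1 in the same exact test). The highest mitochondrial share, 7.0%, was in PD-1/CD40L replicate 3.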

How the data were processed

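RNA-seq was measured in 30 PANC-1 cultures, and groups and replicate numbers came from the sample labels. The authors trimmed single-end reads with Cutadapt through Trim Galore 0.3.3, used STAR to map them to hg38, and took abundances from RSEM. The submitters' processing notes also name FastQC 0.11.2 and SAMtools 1.3.1. Libraries were made from total RNA with a directional kit, which marks strand. Which annotation release and which strand setting for RSEM they used, and whether RNA was selected by poly(A) or depleted of rRNA, is not given in the sources used. Overlapping and antisense genes are therefore uncertain. The deposited expected counts are RSEM estimates per gene, not normalized, and were rounded here. The deposited TPM values are scaled by length, and the effective lengths are another RSEM output that the authors deposited. TPM was used for levels between genes and the lengths for 1 alternative.

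Of 60483 gene records 56321 were matched by identifier to a symbol in GENCODE 44 and 4162 were not. filterByExpr kept 18424 genes. Differences were tested with the robust quasi-likelihood test of edgeR 4.0.16 on TMM-scaled counts. A single model held all 30 libraries, each group with its own mean, and p-values were adjusted by Benjamini-Hochberg at 0.05. Precision is set by the summed counts, 21.9 to 60.5 M per library, and by a biological coefficient of variation of 0.0942. Intervals are 95% from the fit, and floors cover counting error only. List levels per library are means of log2(CPM + 0.5). Shares of counts were compared with an exact permutation test. The study compared groups pairwise with DESeq2. Python 3.11.15 (with pandas 2.3.3, numpy 2.4.6, scipy 1.17.1 and matplotlib 3.10.9), R 4.3.3, limma 3.58.1 and DESeq2 1.42.0 were used, and the fits were tested on simulated data.

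The comparison, the 34 gene lists and the naming rule were chosen with earlier results of these data known. The rule named up to 15 genes each way with the largest fold change among those past the test with a mean of at least 50 counts and no overlap between the 6 libraries. It added all genes of the CD40, integrin, PD-1 ligand, NF-κB and target lists by value or range, up to 4 members of each other list by test and p, and the genes past the test in the other contrasts. Further list members, and the genes from the comparisons with single PD-1 groups, were named after their values were seen. Some named members are not reported here. Alternatives were DESeq2 and edgeR on other sets of libraries, limma-voom, RLE size factors, other filters, removed GC and length trends, mitochondrial genes left out, protein-coding genes only, a replicate block, a threshold of 0.1, 4 libraries left out and each library left out. Thinned counts and single PD-1 groups as the reference were added after seeing the data.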

Additional observations from a re-analysis of the deposited data

Results flagged for a closer look

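Differences between PD-1/CD40L and other PD-1 hybrids that passed a test of the difference itself concerned noncoding RNAs. MT-RNR1 was higher than in PD-1 hybrids by 0.91 on the log2 scale and higher than the mean of the other 7 PD-1 groups by 0.59. MT-RNR1 lost the call against PD-1 without PD-1 replicate 1 or 2, and against the other 7 groups without any 1 PD-1/CD40L library, PD-1/CTLA4 replicate 1 or 3, or replicate 1 of PD-1. SCARNA7 was higher by 3.52 and 2.39 in the same comparisons. The 5.8S rRNA records, 4 with identical values, were higher than the mean of the other 7 groups by 2.44, and lost the call without PD-1/CD40L replicate 1 (2.00) or 2 (2.48). Levels near those of PD-1/CD40L were found in the hybrids with CTLA4, CD27 or CD2 beside PD-1, from which PD-1/CD40L differed in none of these RNAs past the test.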

How the results depend on the processing

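PD-1/CD40L against plain DSLB hybrids gave between 3612 and 5908 genes under the alternatives that kept all compared libraries, against 4700. With 1 library left out at a time it gave 3394 to 4153 genes, 1573 to 1977 higher and 1634 to 2176 lower, and 1573 was reached without PD-1/CD40L replicate 1. The share of higher genes among those called ranged from 46.3% to 54.2%, against 51.7%. PD-1/CD40L against PD-1 gave 110 genes with DESeq2 on all libraries, 170 with DESeq2 on the compared groups, 11 with a GC trend removed, 35 with a length trend removed, 6 with thinned counts, 4 with edgeR on the compared groups, 1 with a mean of at least 100 counts, 1 with mitochondrial genes left out, 481 with no filter, 0 among protein-coding genes and 56 at a threshold of 0.1, against 2. With 1 library left out it gave 1 to 14, with 14 for PD-1/CD40L replicate 1, 4 for PD-1/CD40L replicate 2, 7 for PD-1 replicate 3 and 1 for PD-1 replicate 1 or 2. Against the mean of the other 7 PD-1 groups, 6 genes became 67 and 59 with DESeq2 on all and on the compared libraries, 285 with no filter, 0 among protein-coding genes, 13 without the 4 libraries that stood apart, 14 at a threshold of 0.1, and 2, 0, 0, 3 and 117 against PD-1/CD2, PD-1/CD27, PD-1/CTLA4, PD-1/LAG3 and PD-1/TIGIT alone. With 1 library left out it gave 1 to 9, and 1 without PD-1/CD40L replicate 2. The cause of these shifts was not tested.

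Of 139 named genes past the test against plain DSLBs 113 stayed past it under every alternative that gave a value, and none of the 170 reversed. The 134 values that lost the call belong to 26 genes. Those that lost it with a library of either group left out were BIRC2, CYP1A1, ENO1, ENSG00000234648, ENSG00000280133, H3C13, HSPB1, ITGAV, MAP3K14, NFKB1, OTUD7B, PDIA4, PFKFB3, REL, RELA, SCARNA9, SNORD15B, TAP1, TAP2 and TAPBP. 5.8S rRNA lost it with edgeR on the compared groups, BCL3, CHUK and XIAP with a GC trend removed, CYLD with a length trend removed and CXCL6 with thinned counts. With GC and length trends removed, 20 and 21 of 24 hypoxia genes rose, and 27 and 28 of 29 proliferation genes fell. In the comparisons among PD-1 groups MT-RNR1 and 5.8S rRNA lost calls as well. DESeq2 gave SCARNA7 no adjusted p in the comparisons among PD-1 groups.

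The same-numbered libraries of both groups correlated at 0.0236, -0.0643 and -0.0119 in their deviations from the group mean. No pairing by replicate number was seen there, though these few values cannot exclude it. The paper describes the biological replicates of its conditions as run in parallel. With the replicate block 4800 genes were called against plain DSLBs, 4610 of them shared with the model without it, 2 against PD-1 and 9 against the mean of the other 7 groups. Of the named genes only TAP1 lost its call.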
